A study of Homo sapiens with 4 samples.

Results

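Adenosines that follow a uridine and precede a cytidine (NUACN, where N is any base) lie outside DRACH, the consensus context of N6-methyladenosine (m6A). DRACH stands for any base but C, a purine, the adenosine, a C and any base but G. The members were examined in a pool of 11999 synthetic RNAs that had been made by in vitro transcription and probed with an antibody against m6A. Members were chosen from sequence alone: every adenosine with 2 recorded bases on each side, U at -1 and C at +1, whatever the bases at -2 and +2. There were 11741 such sites among 1691859 recorded positions (0.694%), in 6904 of the 11999 oligonucleotides. A sequence was usually carried by 3 oligonucleotides with different tags, so that the members came from 2260 of 3949 distinct sequences, at 3829 positions. One oligonucleotide held up to 7 members. None of the members was at position 51, where the adenosine for which a sequence was designed lies. In RNAs built around a selected adenosine they are therefore bystanders. This is not said of the class Others, which holds 590 of the members.

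Apart from controls, the RNAs carried human transcript regions, and they were the same in all libraries. No cells were involved in the methylation step. In the methylated group they had been incubated with the recombinant METTL3–METTL14 complex, and in the unmethylated group without it, with 2 libraries each. Crosslinks of the antibody were then mapped by miCLIP2, in which reverse transcription stops at the crosslinked nucleotide and leaves a count there. The 4 libraries held 10483825 and 12028474 counts (unmethylated) and 13110615 and 13265092 counts (methylated). Values are counts, or counts scaled to a library total of 1000000 counts (CPM). A count at a site is an antibody crosslink and not by itself a measure of the fraction methylated, and the counts of the unmethylated libraries give the background.

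METTL3 is the catalytic subunit of the main m6A writer of mammalian mRNA, and METTL14 is its partner that helps hold the RNA. The pair transfers a methyl group to the adenosine of DRACH, most readily where G lies at -1 and U at +2. A pyrimidine at -1 breaks the consensus, while the C at +1 is the part of the motif that the members keep. In crosslinking assays uridines react readily under ultraviolet light, so that a U next to an adenosine can bring background counts of its own.

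The windows of members that the single-site results turn on are printed 5′ to 3′ as RNA, with 10 nt on either side. Capitals mark the U, the adenosine and the C that define a member. The first 4 windows belong to members among the 10 largest rises, and the last 4 to members that were measured in several versions of one locus.
USP19 position 93: gugcacgugUACgugaaggag
KCNG1 position 99: cgcauccugUACgugaugcgc
GLRX5 position 131: gaaaagccuUACccauuuugg
ATP9A position 90: aaucagaagUACaauuucuuc
SPG7 position 102: cuugguuuuUACugcucugag
VARS1 position 57: ugaaaccugUACugaaugggg
ECSIT position 75: gucaccaucUACcagguaucc
ECSIT position 96: gcccuugucUACagcgucagc
Symbols are those of RefSeq genes of GRCh38.p14 that overlap the locus coordinates in the table, irrespective of strand. The genome build of those coordinates is not given in the sources used here, and 98.7% of 3488 loci fell in a gene, against 66.0% to 72.2% after the coordinates had been shifted. The adenosine at position 51 was given as chromosome 3, 49116568 (minus strand) for USP19, chromosome 20, 51004574 (minus) for KCNG1, chromosome 14, 95544115 (plus) for GLRX5 and chromosome 20, 51729898 (minus) for ATP9A. It was chromosome 16, 89557659 (plus) for SPG7, chromosome 6, 31779803 for VARS1 and chromosome 19, 11513084 (minus) for ECSIT. Members lay at the stated positions of the 141, downstream of position 51 in these 8 cases. Exon, intron and untranslated parts were not assigned here.

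As a class, the members gained signal after incubation with the writer. All members together held 3904 and 3848 CPM in the unmethylated pair and 5157 and 4969 CPM in the methylated pair. Both methylated libraries lay above both unmethylated ones. The mean rose from 3876 ± 39.8 to 5063 ± 133 CPM (SD, n = 2 each), a ratio of 1.31. As shares of each library, these are 0.390% (95% Wilson interval 0.3867 to 0.3942), 0.385% (0.3813 to 0.3883), 0.516% (0.5118 to 0.5196) and 0.497% (0.4931 to 0.5007). The difference was larger than the spread between replicates, and the exact two-sided permutation p was 0.333, the lowest value possible with 2 libraries in each group. When the counts of a member were set against those expected from the total of its oligonucleotide, the ratio was 1.32. The class therefore gained against its own RNA molecules by about as much as against the library.

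With counts summed by the base before, the base itself and the base after, UAC rose by 0.43 ± 0.05 on the log2 scale (SE, edgeR quasi-likelihood test, adjusted p = 1.44e-13 over 64 such 3-mers). Against oligonucleotide totals the rise was 0.38 ± 0.04 (adjusted p = 5.2e-15). UAC had rank 3 of the 64 in both. Of all 64 3-mers, 10.9% rose. These include 3-mers without an adenosine in the middle: UUC (0.23 ± 0.06, adjusted p = 0.00517), UCA (0.20 ± 0.06, 0.0251) and CUC (0.20 ± 0.06, 0.0258). Against oligonucleotide totals UUC, UCA and CUC did not pass (adjusted p = 0.148, 0.391 and 0.393). CAC, the other context with a pyrimidine at -1 and C at +1, had rank 7 with 0.18 ± 0.06 (adjusted p = 0.0331), and against oligonucleotide totals it had 0.12 ± 0.07 (adjusted p = 0.305). This summary by 3-mer was added after the data had been seen.

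The gain was small beside that of DRACH. Adenosines with U at -1 but A, G or U at +1 had a ratio of 1.01, CAC had 1.10 and DRACH adenosines had 2.39. Within DRACH, UGAC and AGAC before A, C or U had 1.62. The log2 ratio of member counts to CAC counts was -1.116 and -1.095 without the writer and -0.854 and -0.867 with it, a difference of 0.24. Against adenosines with U at -1 and no C at +1, the difference was 0.37, from -2.548 and -2.587 to -2.153 and -2.237. Against DRACH it was -0.87. In each of these comparisons the 2 groups did not overlap, beyond the spread between replicates, and the exact permutation p was 0.333, the smallest possible. Members thus rose relative to both kinds of non-DRACH adenosine in these libraries and lost ground relative to DRACH.

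The rise was seen in most but not all of the 16 possible 5-mers. With all counts of a 5-mer summed, 12 of 16 rose in edgeR and 0 fell, where 6.54% of all 5-mers rose and 4.88% fell. Before adjustment, 15 of the 16 had a p under 0.05, all of them higher, but the share of all 5-mers at that threshold is not given here. The median log2 change of the 16 was 0.45, against 0.01 over all 5-mers. Against oligonucleotide totals 11 rose, where 4.49% of all did, and 10 rose in both. Against oligonucleotide totals 0 of the 16 fell, where 2.73% of all 5-mers did. All 16 estimates were above 0 on both scales, where the median over all 5-mers was 0.01 and, against oligonucleotide totals, -0.02. DESeq2 also called 12 higher and 0 lower, but its share of all 5-mers is not given here. Of the 16 5-mers of CAC, 3 rose.

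The largest rise was that of UUACU. This 5-mer held 134.6 and 109.3 CPM in unmethylated RNA and 228.4 and 271.0 CPM in methylated RNA, so the groups were apart. Its log2 change was 1.06 ± 0.12 (SE, adjusted p = 7.17e-06), rank 10 among all 5-mers. UUACG followed with 0.87 ± 0.12, from 53.03 and 53.29 CPM to 99.08 and 91.29 CPM (adjusted p = 0.00016). UUACA had 0.64 ± 0.09 (adjusted p = 0.000198) and UUACC 0.62 ± 0.09 (adjusted p = 0.000208). The 4 UUAC 5-mers thus held the 4 highest estimates of the 16 on the library scale. Against oligonucleotide totals AUACA, with 0.66 ± 0.09, lay above UUACC (0.56 ± 0.08) and UUACA (0.53 ± 0.08). The estimates of UUACA and UUACC lay within their errors of each other on both scales.

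At the other end was CUACA. It held 748.9 and 633.4 CPM without the writer and 759.9 and 643.9 CPM with it, with overlapping groups and a log2 change of 0.05 ± 0.10 (SE, adjusted p = 0.8). It carried more counts than any other of the 16. AUACG also missed the threshold, with 0.41 ± 0.19 (SE). So did CUACG (0.30 ± 0.11) and GUACG (0.25 ± 0.11). The 4 uncalled 5-mers include 3 of the 4 that end in G at +2, while UUACG was called with 0.87 ± 0.12. AUACG had 129 members, and its estimate lay above those of the called AUACC (0.39 ± 0.09) and CUACU (0.33 ± 0.09). Missing the threshold thus did not follow the size of the estimate alone. GUACG passed against oligonucleotide totals (0.33 ± 0.09, adjusted p = 0.027). Among the called 5-mers, GUACC had 0.57 ± 0.09, AUACA 0.61 ± 0.10, AUACU 0.54 ± 0.13 and CUACC 0.48 ± 0.09 (SE).

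**Figure D1:**
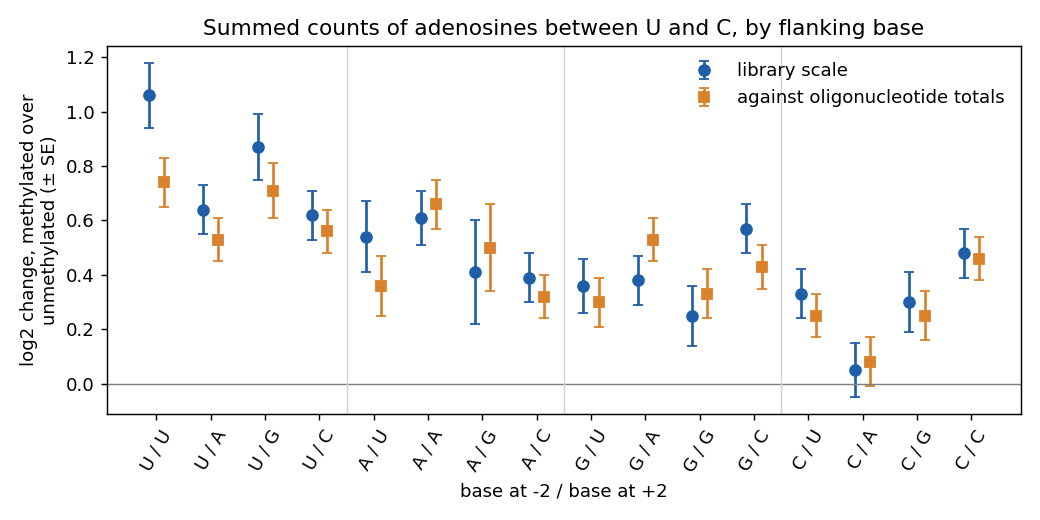
Log2 change of the summed counts of each of the 16 member 5-mers, labelled by the base at -2 and the base at +2, on the library scale (circles) and against oligonucleotide totals (squares), with bars for 1 SE. UUACU, at the left, is highest on the library scale at 1.06, and CUACA is lowest at 0.05.

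Sorted by the base at -2, the members with U had the highest ratio. They held 659.5 and 629.2 CPM in the unmethylated pair and 1007 and 1108 CPM in the methylated pair, a ratio of 1.64. Members with A at -2 had 1.36 and those with G had 1.29. Those with C, the most frequent (4310 members), had 1.17, from 1750 and 1686 CPM to 2114 and 1916 CPM. Against oligonucleotide totals the ratios were 1.56 for U, 1.34 for A, 1.36 for G and 1.20 for C, so that A and G changed places. With a member's share of its oligonucleotide taken over all 4 libraries, A and G both had 1.34. The log2 ratio of UUAC to CUAC counts was -1.408 and -1.422 without the writer and -1.069 and -0.790 with it, a difference of 0.49. The same difference was 0.22 for A against C and 0.14 for G against C. Each pair of groups was apart, with the exact permutation p of 0.333 that the design allows at best.

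The base at +2 spread the members less. The ratio was 1.42 for U, 1.40 for C, 1.24 for G and 1.20 for A. Against oligonucleotide totals it was 1.33, 1.38, 1.25 and 1.29 in the same order. At +3, U had 1.55 and A had 1.11, or 1.50 and 1.28 against oligonucleotide totals. At -3, U had 1.56, A 1.50, G 1.17 and C 1.10. The first and last of these gave a difference of 0.50 on the log2 scale between groups, with both methylated libraries (-0.003 and 0.000) above the unmethylated ones (-0.604 and -0.407).

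Reading the bases at -3 and -2 together widened the range. Members in UUUAC held 171.4 and 174.8 CPM in unmethylated RNA and 345.8 and 365.6 CPM in methylated RNA, a ratio of 2.05. Members in CCUAC held 742.1 and 653.5 CPM, then 699.0 and 614.2 CPM, a ratio of 0.941 with overlapping groups. Without the 1% of sites with the highest counts, the ratios of UUUAC and CCUAC were 1.99 and 1.11. Against oligonucleotide totals these ratios were 1.96 and 1.01. With a member's share of its oligonucleotide taken over all 4 libraries, that of UUUAC was 1.85. A fit over the 5-mers from -3 to +1, added after these values had been seen, called 11 of the 16 that end in UAC higher, where 6.84% of all rose. UUUAC rose by 1.07 ± 0.08 on the log2 scale (SE, adjusted p = 8.02e-06), GUUAC by 0.91 ± 0.11 (adjusted p = 0.000292) and UGUAC by 0.81 ± 0.09 (adjusted p = 0.000122). CCUAC had -0.06 ± 0.09 (adjusted p = 0.761). Against oligonucleotide totals 14 of the 16 rose, where 5.57% of all did, UUUAC by 0.89 ± 0.08 (adjusted p = 3.41e-11), and CCUAC and CGUAC did not pass.

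Upstream uridines went with higher ratios in CAC too. CAC adenosines with U at -2 had a ratio of 1.38, against 1.04 to 1.07 with the other bases there. With U at -3 and -2, UUCAC, the ratio was 2.04, from 216.2 and 201.0 CPM to 415.4 and 433.8 CPM, close to the 2.05 of UUUAC. Among adenosines with U at -1 but no C at +1, the ratio with U at -2 was 0.966, and that of UUUA before A, G or U was 0.982. With U at -3 it was 1.12, from 9082 and 9751 CPM to 10330 and 10800 CPM, the highest of the 4 bases there (A 0.990, C 0.945 and G 0.874), or 1.07 against oligonucleotide totals. The difference between the sets with and without C at +1 was not tested for these bases.

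**Figure D2:**
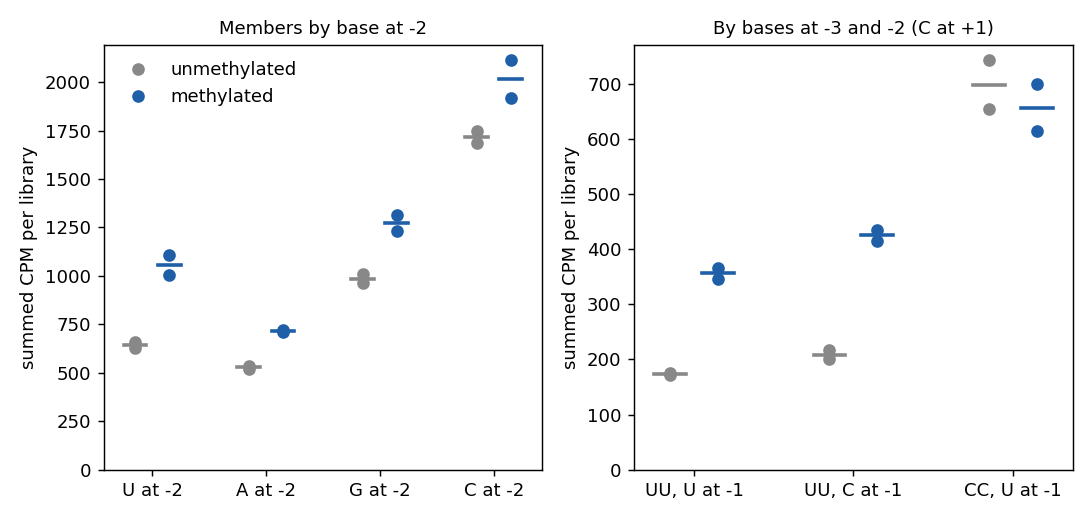
Summed CPM in each library, with unmethylated libraries in grey, methylated ones in blue and a bar at the mean of each pair. On the left are the members by base at -2, and on the right adenosines before C by the bases at -3 and -2 and at -1. The groups are apart for UUUAC and UUCAC, with ratios of 2.05 and 2.04, and overlap for CCUAC.

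Most single members were too sparse to test. No count was recorded in any library at 5559 of the 11741, and the median member had 1 count over the 4 libraries. At least 10 counts in at least 2 libraries were found at 1119 members (9.53%), in 968 oligonucleotides of 548 sequences. Of these, 208 passed only through the methylated libraries and 13 only through the unmethylated ones, so that counts and medians over the tested members describe them and do not support the class result. Among these sites 147 were called higher and 16 lower in edgeR, or 13.1% and 1.43%, where 3.80% and 1.84% of all 194723 tested sites were. Their median log2 change was 0.49, against -0.02 over all sites. The 5 tested members without an unmethylated count lie above that median at their lower bounds too. By the same minimum CAC had 126 higher and 25 lower of 2273 tested, and adenosines with U at -1 but no C at +1 had 89 higher and 71 lower of 3672. Against oligonucleotide totals 77 members were higher and 2 lower (6.88% and 0.179%, where 1.58% and 0.296% of all sites were), with a median of 0.46, and 65 were higher in both. With DESeq2 78 were higher and 8 lower. Shares over all sites with DESeq2 or with a library left out are not given here, so those counts describe the members only. Without methylated replicate 1 the count was 73 higher, or 43 against oligonucleotide totals, and without methylated replicate 2 it was 94 higher and 7 lower. The 2 lower against oligonucleotide totals became 1 and 0 without these libraries, and 4 without unmethylated replicate 2. Both methylated libraries lay above both unmethylated ones at 547 of the 1119 (48.9%), against 25.4% of all tested sites.

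A minimum on the total over all 4 libraries treats both groups alike. At least 40 counts in total were held by 967 tested members, of which 126 were higher and 15 lower (13.0% and 1.55%), where 3.92% and 1.96% of all such sites were. Against oligonucleotide totals 73 of the 967 were higher, where 1.70% of all such sites were. Replicates of one group differed more than counting error at members with at least 20 counts, with a chi-square over its degrees of freedom of 3.91 in the unmethylated pair and 3.57 in the methylated pair.

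By -2 base, 49 of 234 tested members with U were higher, 53 of 297 with G, 17 of 147 with A and 28 of 441 with C. In UUUAC 27 of 76 were higher, with a median log2 change of 1.30. In UGUAC 27 of 105 were higher and 1 lower. In CCUAC 5 of 123 (4.07%) were higher and 4 lower, near the 3.80% and 1.84% of all tested sites. On the library scale U stood highest and C lowest, as in the sums of the same counts. Against oligonucleotide totals G had 29 of 297 higher (9.76%) and U 21 of 234 (8.97%), then A 10 of 147 and C 17 of 441, where 1.58% of all sites were. Members that passed the minimum only through the methylated libraries are among these, so the counts describe the tested members.

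Of the 10 largest rises 9 are described here, and 4 of these were members without a count in either unmethylated library. They passed the minimum only through the methylated libraries, where they are high, so their calls describe them and are no independent support. ATP9A position 90, a GUACA, had 14 and 15 counts in the methylated libraries and was at least 4.11-fold above a floor of 3 counts per library (adjusted p = 0.00547). SERPINH1, which encodes a collagen chaperone, had a GUACC at position 33 that was at least 3.40-fold higher. GLRX5, an iron-sulfur cluster protein gene, had a UUACC at position 131 with 12 and 12 counts, also at least 3.40-fold higher, and a GUACG of TTYH3 at position 129 was at least 3.26-fold higher. Against oligonucleotide totals ATP9A and SERPINH1 passed (adjusted p = 0.0467 and 0.0478) and GLRX5 and TTYH3 did not (0.0535 and 0.116). Without either methylated library none of the 4 was called, with adjusted p of 0.0998 and 0.0924 for ATP9A, 0.31 and 0.0924 for SERPINH1, 0.205 and 0.156 for GLRX5 and 0.205 and 0.196 for TTYH3, which also lost its call without unmethylated replicate 2 (0.055). With the tags of a sequence summed, the log2 change was 3.16 for SERPINH1 and, uncalled, 2.52 for GLRX5 (adjusted p = 0.0699).

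The other 5 had a few background counts, and they too passed the minimum only through the methylated libraries. USP19, a deubiquitinase gene, had 0 and 1 counts without the writer and 59 and 43 with it at position 93, in the context GUACG. The ratio was 87.1 (95% counting interval 15.3 to 3470), and the adjusted p was 1.88e-05, or 0.000417 against oligonucleotide totals. The oligonucleotide itself held 858 and 737 counts without the writer and 2163 and 2077 with it. KCNG1, a potassium channel subunit gene, had a GUACG at position 99 with 1 and 0 counts and then 39 and 12 (ratio 43.5, interval 7.47 to 1750). Its methylated libraries were both high but were unequal in CPM, 2.97 against 0.905, and without the first of them it was not called (4.02, adjusted p = 0.356). With the tags of its sequence summed, its log2 change was 2.12 in place of 5.14, still called. A CUACU at position 42 of a locus without a single symbol had 4 and 0 counts, then 100 and 45 (log2 change 4.86 ± 0.69 SE, adjusted p = 7.6e-05), and DESeq2 did not call it (adjusted p = 0.0728). DESeq2 called USP19 and KCNG1 (adjusted p = 0.00215 and 0.0339). It gave no adjusted p for ATP9A, SERPINH1, GLRX5, TTYH3, TUSC1 or GPAT4. TUSC1 position 44 (AUACC) had a ratio of 32.4 (5.48 to 1310) and GPAT4 position 71 (UUACC) 29.9 (5.02 to 1210). TUSC1 was not called without methylated replicate 1 (adjusted p = 0.06) or 2 (0.0676), nor GPAT4 without methylated replicate 1 (0.304). The size of these 5 also rests on a few unmethylated counts: for USP19 the log2 change of 6.14 was 5.34 and 8.58 without either unmethylated library, and 4.75 with tags summed. All 5 passed against oligonucleotide totals as well, with adjusted p between 6.02e-05 and 0.0259. Among the described members of the 10 largest rises, 5 had G at -2, as did 297 of the 1119 tested members. All of the described rises passed the minimum only through the methylated libraries, so this tally is no result about that base.

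With more counts, the rises were smaller and better measured. ECSIT position 75, a CUACC in one oligonucleotide of the permuted class, held 6.20 and 7.07 CPM without the writer and 36.8 and 29.9 CPM with it. Its log2 change was 2.31 ± 0.31 (SE, adjusted p = 4.24e-05), and 1.70 ± 0.25 against oligonucleotide totals. SPG7 position 102, a UUACU, held 5.91 and 4.57 CPM and then 21.9 and 22.5 CPM, a log2 change of 2.07 ± 0.32 (adjusted p = 0.000185), or 1.37 ± 0.26 against oligonucleotide totals. SP1, a transcription factor gene, had an AUACA at position 43 with 4.10 and 2.91 CPM, then 11.6 and 8.37 CPM. The oligonucleotide of SP1 held fewer counts with the writer, so that the log2 change went from 1.50 ± 0.35 to 2.07 ± 0.32 against its total. ENTR1 position 97, an AUACC, rose from 8.01 and 7.65 to 18.9 and 18.0 CPM (log2 change 1.22 ± 0.31, adjusted p = 0.017). SP1 was not called without methylated replicate 1 (1.22, adjusted p = 0.161), nor ENTR1 without methylated replicate 1 (0.128) or 2 (0.0593), while ECSIT and SPG7 were called with each library left out.

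For several members the oligonucleotide total rose as well, and the call was lost against it. DFFA position 82, a CUACA, rose by 1.83 ± 0.32 on the log2 scale (SE), and had 0.48 ± 0.25 against its total (adjusted p = 0.47). With the tags of its sequence summed the rise was 1.18. ZNF853 position 12, a UUACA, had 2.14 ± 0.37 and then 0.41 ± 0.32 (adjusted p = 0.692). GNAL position 91, a UUACC, had 1.30 ± 0.31 and then 0.26 ± 0.26 (adjusted p = 0.778), and was not called without methylated replicate 1 (adjusted p = 0.115). PHF2 position 104, a UUACG with a DRACH adenosine 4 nt away, had 2.26 ± 0.45 and then 0.80 ± 0.42 (adjusted p = 0.473). Its change was 3.44 and 1.60 without unmethylated replicate 1 and 2. Their oligonucleotide totals were higher in the methylated libraries, for DFFA 4285 and 4197 against 12517 and 13391 counts. KMT2B position 18, the called CUACG with the highest mean CPM, had 1.37 ± 0.36 and also passed against its total (1.23 ± 0.31, adjusted p = 0.0377). It was not called with the tags of its sequence summed (0.65, adjusted p = 0.221), without unmethylated replicate 1 (0.99, adjusted p = 0.154) or without methylated replicate 1 or 2 (adjusted p = 0.0737 and 0.0706). A GUACC at position 78 of a locus without a single symbol went from 4.39 and 3.33 CPM to 12.6 and 7.92 CPM (1.40 ± 0.36, or 1.68 ± 0.31 against the total). It passed on both scales, but not with tags summed (0.93, adjusted p = 0.0733), without methylated replicate 1 (1.01, adjusted p = 0.321) or without unmethylated replicate 2 (adjusted p = 0.0596). A CUACU at position 63 of another locus without a single symbol had 1.62 ± 0.36 and then 0.76 ± 0.32, and an adjusted p of 0.0505 without methylated replicate 1.

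Falls were fewer, and of the 16 members called lower 2 were also lower against oligonucleotide totals. The oligonucleotide of DLX1, a homeobox gene, held 38349 and 51033 counts without the writer and 7461 and 7377 with it. Its GUACA at position 94 went from 83.7 and 66.8 CPM to 10.1 and 8.29 CPM, a log2 change of -3.05 ± 0.31 (SE, adjusted p = 7.47e-07). Against the total the change was -0.24 ± 0.23 (adjusted p = 0.758). The CUACC at position 12 of the same oligonucleotide had -2.05 ± 0.45 and, against the total, 0.75 ± 0.44. Its GUACG at position 59 had -1.27 ± 0.33, and rose against the total by 1.55 ± 0.28 (adjusted p = 0.00186). One RNA thus held a member that fell in CPM and rose within its molecule. The fall in CPM was not called without methylated replicate 2 at position 12 (adjusted p = 0.0974) or 59 (0.289), nor without unmethylated replicate 2 at position 59 (0.0503). RECQL5 position 129 (CUACA, -2.81 ± 0.84) and HOXD13 position 39 (GUACU, -1.41 ± 0.40) lost their call against the total. RECQL5 lost it with any library left out (adjusted p 0.0725 to 0.38) and with tags summed (-0.99, adjusted p = 0.277), and HOXD13 without methylated replicate 2 (0.32) and with DESeq2 (0.118). PDP2 position 80, a UUACA, was lower in both, with -1.88 ± 0.51 and -1.83 ± 0.47 (adjusted p = 0.0378), from 4.39 and 2.66 CPM to 1.45 and 0.452 CPM. It was not called by DESeq2 (adjusted p = 0.101), with tags summed (-1.43, adjusted p = 0.0978), without unmethylated replicate 1 (-1.52, adjusted p = 0.0892) or without methylated replicate 2 (-1.26, adjusted p = 0.266). Another tag of the PDP2 sequence had -0.15 ± 0.84 (adjusted p = 0.957).

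The tested members with the highest mean CPM among those with A, C or U at -2 were not called, while that with G was the GUACA of DLX1, which fell. The highest with A at -2, RTL8C position 86 (AUACC), held 107 and 120 CPM in the unmethylated pair and 163 and 100 CPM in the methylated pair, with overlapping groups (adjusted p = 0.789). This one site made up 34.6% of all AUACC counts. OGFR position 55 (CUACA) held 115 and 68.7 CPM and then 65.4 and 46.1 CPM (adjusted p = 0.18), and was called lower without unmethylated replicate 2 (-1.03, adjusted p = 0.0159). ATG4B position 111 (UUACC) held 23.5 and 31.8 CPM and then 18.4 and 18.4 CPM (adjusted p = 0.272). In both of these, each methylated library lay below each unmethylated one. Without the 1% of sites with the highest counts, 37 of them members, the class ratio was 1.42 in place of 1.31.

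The same member could be followed through different versions of a locus, where the motif at position 51 had been exchanged. These loci were chosen after their values had been seen and are given as a description. ECSIT position 75 was tested in 9 oligonucleotides of 4 sequences whose window was identical, and 7 were higher, 6 of them also against oligonucleotide totals. With UGACC at position 51, the original, the log2 change was 0.73 in its 1 tested oligonucleotide. With GGACU it was 1.89 to 3.29 in 3, with GGACA 3.37 to 4.33 in 3, and with GAACU 1.85 and 3.81 in 2. The adenosine at 51 is 24 nt from the member. In the same RNAs the CUACA at position 96 was tested in 8 oligonucleotides and not called in any, with log2 changes between -1.04 and 0.74. In the oligonucleotide with the largest rise, position 75 went from 0.763 and 0.333 CPM to 11.1 and 11.2 CPM, and position 96 from 1.53 and 4.99 CPM to 1.53 and 1.73 CPM. Both are CUAC with U at -3, and the windows printed above differ at several other positions.

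**Figure D3:**
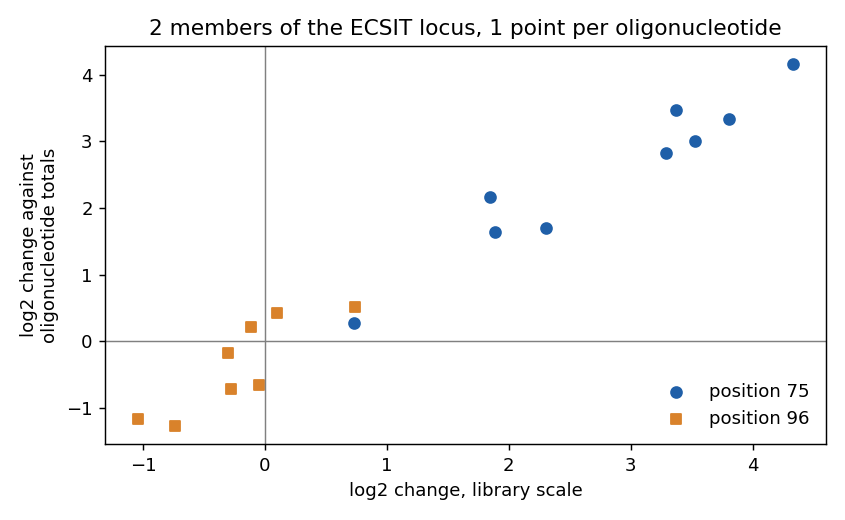
Log2 changes of 2 members in the tested oligonucleotides of the ECSIT locus, on the library scale (x axis) and against oligonucleotide totals (y axis), 1 point per oligonucleotide. The 9 points of position 75 lie between 0.73 and 4.33 on the x axis, and the 8 points of position 96 between -1.04 and 0.74.

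SPG7 position 102 was tested in 6 oligonucleotides of 3 sequences, and 5 were higher, 3 of them also against oligonucleotide totals. The log2 change was 2.07 with GGACU at position 51, 4.06 to 4.33 in 3 oligonucleotides with UGACU, and 1.99 and 4.23 in 2 with GAACC. VARS1, the valyl-tRNA synthetase gene, had a GUACU at position 57 that was higher in all 4 of its tested oligonucleotides, each of another sequence. The change was 3.25 with AAACC at position 51, 4.51 with GGACU, 3.37 with GGACA and 3.94 with GAACU, and 2 of 4 passed against totals. Here the exchanged motif lies inside the window of the member, so its upstream flank differs between these sequences. The window printed above is the one with AAACC. Other repeated members were called higher in 1 oligonucleotide or in none. MGAT4B position 72 (CUACC) was higher in 1 of 6, with log2 changes from 0.12 to 2.39, and VARS1 position 107 (GUACA) in 1 of 3, from 0.90 to 3.69. A UUACA at position 91 of a locus without a single symbol was not called in any of 7, with a median of 1.26 and a highest value of 3.20. GNA11 position 98 (CUACA) was higher in 1 of 5 against totals alone, and THAP4 position 96 (CUACU) was lower in 1 of 8. ATG4B position 111 was tested in 17 oligonucleotides of 6 sequences and ESS2 position 99 (AUACC) in 14 of 6, and no call was made. The log2 changes were -1.18 to 1.28 and -0.05 to 1.03. These versions share most of their sequence and are no independent loci.

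Tags give a check of one sequence against itself. At 135 positions all 3 tagged oligonucleotides of a sequence were tested. All 3 were higher at 6 positions, 2 at 6, 1 at 26 and none at 97. The log2 changes of any 2 tags correlated with Pearson's r of 0.620 to 0.638 and Spearman's rho of 0.535 to 0.617 over 197 to 203 positions. These are values across sites that share sequence and library. In 132 oligonucleotides at least 2 members were tested. In 38 of them at least 1 was higher, and in 31 of these 38 another tested member was not. No matching counts of tags or pairs for other positions are given here, so these counts describe the members only.

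The ratio was highest at the adenosine itself. Over the 10 nt on either side of all members, the ratio of mean CPM was 1.31 at the adenosine and between 0.771 and 1.16 elsewhere, with 1.16 at -3, 1.16 at -6 and 1.10 at -5. At -1, the uridine, 38860 CPM were recorded without the writer and 37340 with it, a ratio of 0.961. That uridine carried far more counts than the adenosine, at 3876 and 5063 CPM, and its level moved the other way. At -2 the mean went from 7701 to 5937 CPM, a ratio of 0.771, or 0.788 against oligonucleotide totals. This fall was not tested. For the 5859 members with no DRACH adenosine within 15 nt, the ratio was 1.31 at the adenosine and 0.693 to 1.06 at the other offsets. At the 77 members called higher against oligonucleotide totals, chosen by their own value, it was 3.52 at the adenosine, 1.10 at -1, 1.05 at +1, 2.13 at -3, 1.70 at -4, 1.62 at -6 and 1.40 at -7.

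**Figure D4:**
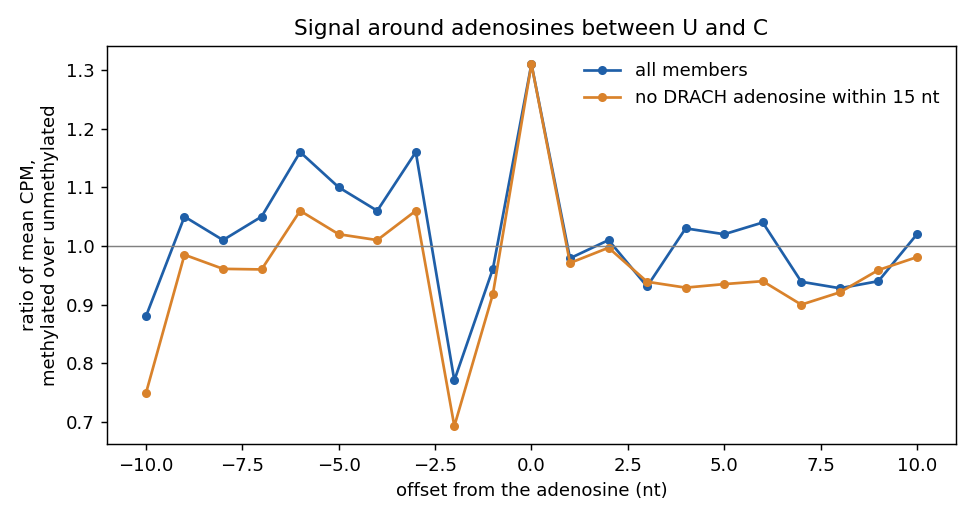
Ratio of mean CPM of the methylated to the unmethylated libraries at each offset from the adenosine, for all members (blue) and for members with no DRACH adenosine within 15 nt (orange). Both lines peak at offset 0 with 1.31 and have their lowest value at -2, with 0.771 and 0.693.

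Members beside a DRACH adenosine did not have the higher ratios. Members 1 to 5 nt from one had a ratio of 1.13 and those 6 to 10 nt away 1.44. Those 11 to 20 nt away had 1.38 and those farther away 1.30. Without the 1% of sites with the highest counts, the ratios were 1.30, 1.51, 1.40 and 1.43 in this order. The median log2 change of tested members 1 to 5 nt away was 0.47, against 0.49 for all tested members. Leaving out the members within 5 nt, the ratio was 1.35. Of the 953 tested members left, 138 (14.5%) were higher, where 3.80% of all tested sites were. Tested members include those that passed the minimum only through the methylated libraries. The median and the count therefore describe the tested members only. By class of RNA the ratio was 1.32 for sequences built around sites with m6A in HEK293T, a human embryonic kidney cell line, 1.25 for those around unmodified ones, 1.45 for permuted sequences and 2.28 for the remaining class, Others, which holds 590 members and few counts (14.98 and 16.38 CPM, then 34.70 and 36.86 CPM). By position along the RNA the ratio was 1.42 at 3 to 47, 1.36 at 48 to 93 and 1.21 from 94 on, or 1.30, 1.35 and 1.30 against oligonucleotide totals. By predicted pairing probability it was 1.29 under 0.25, 1.49 between 0.25 and 0.75 and 1.19 above. Against oligonucleotide totals these were 1.28, 1.40 and 1.48. With a member's share of its oligonucleotide taken over all 4 libraries they were 1.27, 1.40 and 1.37, so the order depended on the scale. None of these splits was tested. In 250 members of sequences that the file spells with U, no site was tested.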

How the data were processed

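Antibody crosslinks were measured in 2 unmethylated and 2 methylated libraries of one oligonucleotide pool. The authors deposited raw counts per position, oligonucleotide and library, without normalization. Per the submitters' processing notes, the tools were STAR 2.7.3a, bedtools 2.27.1 and FastQC 0.11.8. The role of each tool, the genome build and the handling of duplicates were not given.

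The members were picked by sequence, and the members, lists and rules were chosen with earlier results of these data known. A site is 1 position of 1 oligonucleotide. A site was tested where 2 or more libraries had 10 counts or more. The test was the two-sided quasi-likelihood F test of edgeR 4.0.16 (R 4.3.3), with TMM scaling and a model of group alone. P-values were adjusted by Benjamini-Hochberg over all 194723 sites with a threshold of 0.05. A second fit used the log of the oligonucleotide totals as offset, and others used counts summed over all 5-mers or the 64 3-mers. Standard errors are the change over the square root of F. In pooled ratios against oligonucleotide totals, the expected count is the member's unmethylated share of its oligonucleotide times the total in each library. With the share over all 4 libraries in its place, the class ratio was 1.30 and not 1.32. The edgeR fits of sites and of 5-mers, each on the library scale and against oligonucleotide totals, were tested on simulated data. The other fits were not. DESeq2 1.42.0, other scalings, filters, sums over tags and left-out libraries were the alternatives. Pairing came from ViennaRNA 2.7.2.

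Named sites were those past the threshold whose libraries were apart: the 10 largest rises, the 5 largest falls and, for each of the 16 5-mers, the one with the highest mean CPM. For each -2 base the site with the highest mean CPM was named whether called or not. Some sites that this rule chose are not reported here and were not replaced. Sites seen in several versions of a locus were chosen after their values. Intervals and floors of 3 counts cover counting error only. The labels do not say that replicates were separate reactions, so p-values cover only how these samples vary, and that variation may be technical.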

Additional observations from a re-analysis of the deposited data

How the results depend on the processing

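The 16 member 5-mers gave 8 to 13 higher calls and 0 lower when each library was left out in turn, and 9 to 12 under the scalings, DESeq2, filtered sums and oligonucleotide totals tried. Among single sites, 147 higher calls became 78 with DESeq2 and 73 of 276 with at least 50 counts in at least 2 libraries, and 73 to 146 with a library left out. The 16 lower calls became 8 with DESeq2, 10 without a count filter (of 6182 sites with a count), 9 with the tags of a sequence summed, and 7 to 18 with a library left out. Against oligonucleotide totals, 77 higher calls became 43 with at least 50 counts and 43 to 92 with a library left out, and the 2 lower calls became 0 to 4. A higher minimum tests fewer sites, and the cause of the other shifts was not tested. Shares over all sites and all 5-mers under these settings are not given here, so these counts describe the members only. The class ratio of 1.31 was 1.28 to 1.33 with a library left out, 1.35 without members within 5 nt of a DRACH adenosine, 1.42 without the 1% of sites with the highest counts and 1.38 with each oligonucleotide weighted equally. Against oligonucleotide totals the ratio of 1.32 was 1.29 to 1.35, 1.37, 1.39 and 1.38 in these settings. The difference from C-A-C was 0.23 to 0.26, 0.29, 0.29 and 0.30, and that from adenosines with U at -1 and no C at +1 was 0.33 to 0.41, 0.42, 0.50 and 0.49. The direction did not turn in any of these.

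Replicate numbers did not pair the samples: deviations of same-numbered libraries correlated at -0.080 over sites. With the replicate block, 155 members were higher and 15 lower, 99 higher and 2 lower against oligonucleotide totals, and 10 of the 16 5-mers were higher. Shares over all sites and all 5-mers with the block are not given here. Of the 29 named sites, 14 lost their call without methylated replicate 1 and 12 without methylated replicate 2. Against oligonucleotide totals 10 lost it and 3 changed sign: DLX1 position 12 (0.75), DLX1 position 59 (1.55) and ATG4B position 111 (0.06). The lower call was thus also gone at DLX1 position 12 (edgeR, adjusted p = 0.534) and at position 59, which was called higher. RTL8C, OGFR and ATG4B are among the 29 but were not called in the main fit, so they had no call to lose. RTL8C position 86 changed sign when methylated replicate 1 was left out (-0.21, against 0.52 without methylated replicate 2). Depth limits the single sites, since 5559 members had no count in any library.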
